A study of Drosophila melanogaster with 12 samples.

Results

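The glutathione transferase genes of the fly Drosophila melanogaster were taken as all symbols in the gene column of both deposited RNA tables that begin with Gst, a class letter D, E, O, S, T or Z, and a number. The rule found 35 of 16510 listed genes, 11 of class D (delta), 14 of class E (epsilon), 3 of class O (omega), 1 of class S (sigma), 4 of class T (theta) and 2 of class Z (zeta). No measured value entered this rule. RNA was read in heads of adults and in early embryos. They came from the yw strain, called wild type here, or the p53 mutant strain p535A-1-4, either mock treated or exposed to 40 Gy of ionizing radiation. The heads were from mixed adults aged 1 to 2 weeks and were collected 3 h after treatment. The embryos were 3 to 4 h old at treatment and recovered for 1.5 h. Each of these 8 groups is 1 library, so the spread between replicates is unknown and no difference was tested. The labels state neither a shared genetic background of the strains nor the number of animals in a library, so p53 genotype and strain background cannot be told apart.

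Glutathione transferases join the tripeptide glutathione to electrophilic compounds, among them insecticides, plant toxins and the aldehydes formed when membrane lipids are oxidized. The delta and epsilon classes of insects have multiplied by tandem duplication and are known for insecticide resistance, while the omega, sigma, theta and zeta classes have relatives in vertebrates. In flies several members are induced through the transcription factor CncC, the relative of mammalian Nrf2 that Keap1 restrains.

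Levels are in FPKM, fragments per kilobase of transcript scaled to library size, and differences are of log2(FPKM + 1), a scale that understates changes of low genes. A gene was called higher or lower at a 2-fold difference on that scale, provided that 1 of the 4 libraries of that tissue reached 1 FPKM. This left 31 members of 10672 genes in heads and 35 members of 10654 genes in embryos. Head libraries held an estimated 10.95 to 13.7 M fragments and embryo libraries 19.35 to 22.75 M, from the spacing of low FPKM values. Ratios carry exact 95% binomial intervals over the estimated fragments, which cover counting error only. The p53 transcript stood at 11.7 to 54.5 FPKM in the 4 wild-type libraries and at 0.340 to 0.700 FPKM in the 4 mutant libraries. Photoreceptor markers summed to at least 5829 FPKM in heads and at most 2.57 FPKM in embryos, and zygotic patterning genes to at most 27.7 FPKM in heads and at least 319.3 FPKM in embryos. Within heads 2 libraries stood apart on marker lists. Male reproductive tract markers summed to 39.9 FPKM in mock mutant heads and to at most 0.283 FPKM in the others. Gut markers summed to 368.2 FPKM in irradiated wild-type heads and to 80.4 to 172.6 FPKM in the others.

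Most members lie in tandem arrays. All 11 delta genes lie within 20.8 kb at 3R:12364776-12385624 of the dm6 build, and 10 epsilon genes lie within 13.2 kb at 2R:18396638-18409835. GstE11, GstE12, GstE13 and GstE14 stand apart on 2R. The omega genes occupy 5.98 kb of 3L, the gap between GstT1 and GstT2 on 2R is 107 bp, and the gap between GstZ1 and GstZ2 on 3R is 268 bp. In the annotation 16 members have a single exon and 19 are spliced. GstE1 and GstE10 overlap by 127 bp on opposite strands, and 7 members share a listed locus with another gene. Per the labels the libraries were stranded, but whether the counting used strand is not given in the sources used here. Fragments of similar tandem copies may have been divided between genes, so values of neighbouring copies are uncertain.

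**Figure D1:**
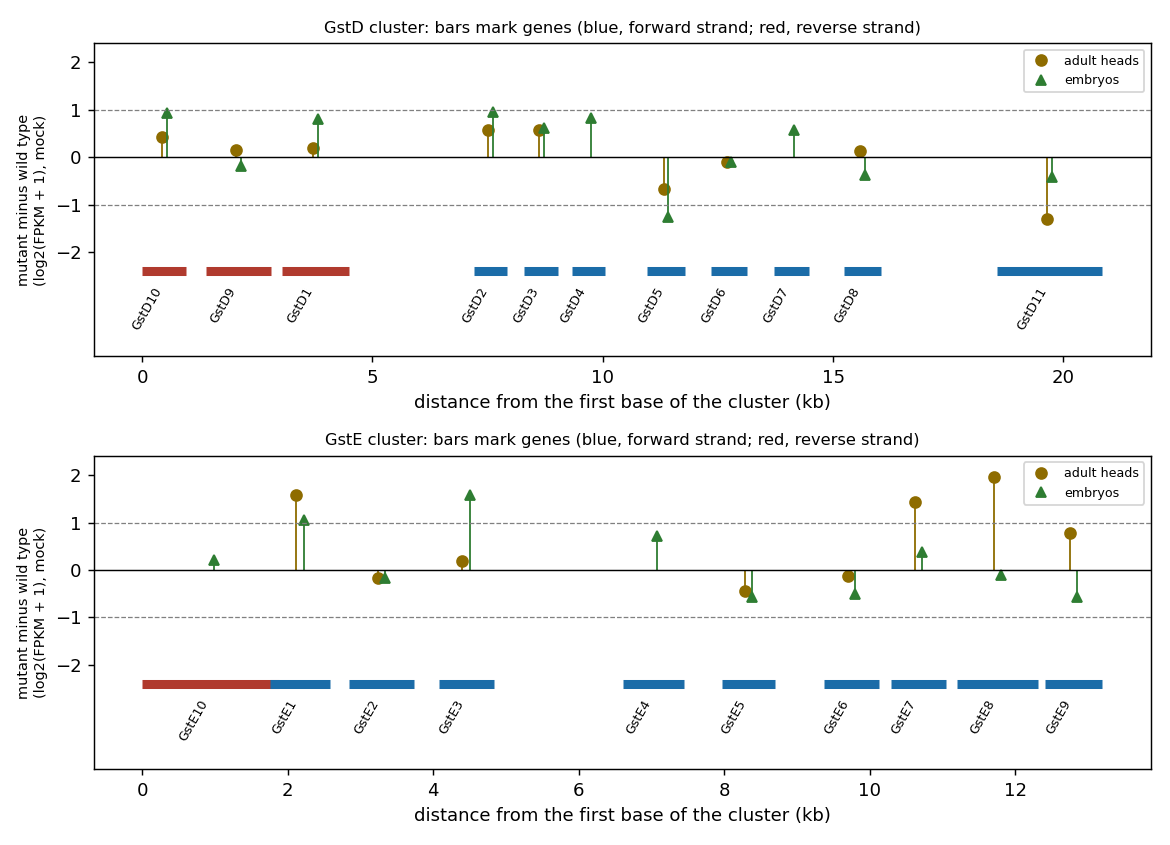
Position of the members of the delta and epsilon arrays, as distance in kb from the start of the array, with the mutant minus wild-type difference of log2(FPKM + 1) in mock heads (circles) and mock embryos (triangles). Bars mark the genes, blue for the forward and red for the reverse strand, and dashed lines mark 2-fold. GstE1, GstE7 and GstE8 of the epsilon array exceed 2-fold in mock heads, while neighbours such as GstE2 and GstE6 do not.

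In heads the family summed to 2049 FPKM in wild-type mock, 2193 in wild-type irradiated, 2411 in mutant mock and 2371 in mutant irradiated libraries, which was 0.354% to 0.406% of the FPKM of all genes. Values of a gene are given in this order of libraries from here on. Epsilon genes made up 45.1% to 48.3% of the sum and delta genes 26.3% to 27.2%. GstD1, an enzyme known to metabolize DDT and a common reporter of oxidative stress, had the highest mean level at 392.1, 409.2, 446.3 and 439.9 FPKM. Its highest library was 1.14 times its lowest, so the 4 libraries were close together. GstE12 followed at 427.3, 406.7, 361.7 and 391.03 FPKM, with a ratio of 1.18 between its highest and lowest library. GstE1, GstO2, GstE6 and GstE9 came next by mean level, and GstO2 stood at 118.2, 135.5, 155.5 and 144.8 FPKM. GstD4, GstD7, GstE4 and GstE10 stayed below 1 FPKM in all 4 head libraries. The highest library was less than 2 times the lowest for 24 of 31 members, against 81.9% of all expressed genes.

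In embryos the family summed to 622.3, 675.6, 858.6 and 1013.0 FPKM, or 0.0919%, 0.103%, 0.130% and 0.148% of all FPKM. Both mutant libraries lay above both wild-type libraries. Delta genes made up 12.6% to 15.5% of the embryo sum and epsilon genes 47.7% to 49.8%. The highest mean level was that of GstO2, of the class known for thiol transfer and dehydroascorbate reduction, at 93.8, 98.3, 127.3 and 158.6 FPKM. GstE12 followed at 63.0, 64.5, 85.2 and 102.7 FPKM, then GstE13, GstS1, GstD1 and GstE6. Of the 6 highest members, 4 were shared by the tissues, namely GstD1, GstE6, GstE12 and GstO2. The highest library was less than 2 times the lowest for 15 of 35 members, against 76.9% of all expressed genes. The tissues were tabulated separately, so their levels are set side by side and not compared. In bulk tissue, fewer cells of a type and less RNA per cell cannot be told apart.

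**Figure D2:**
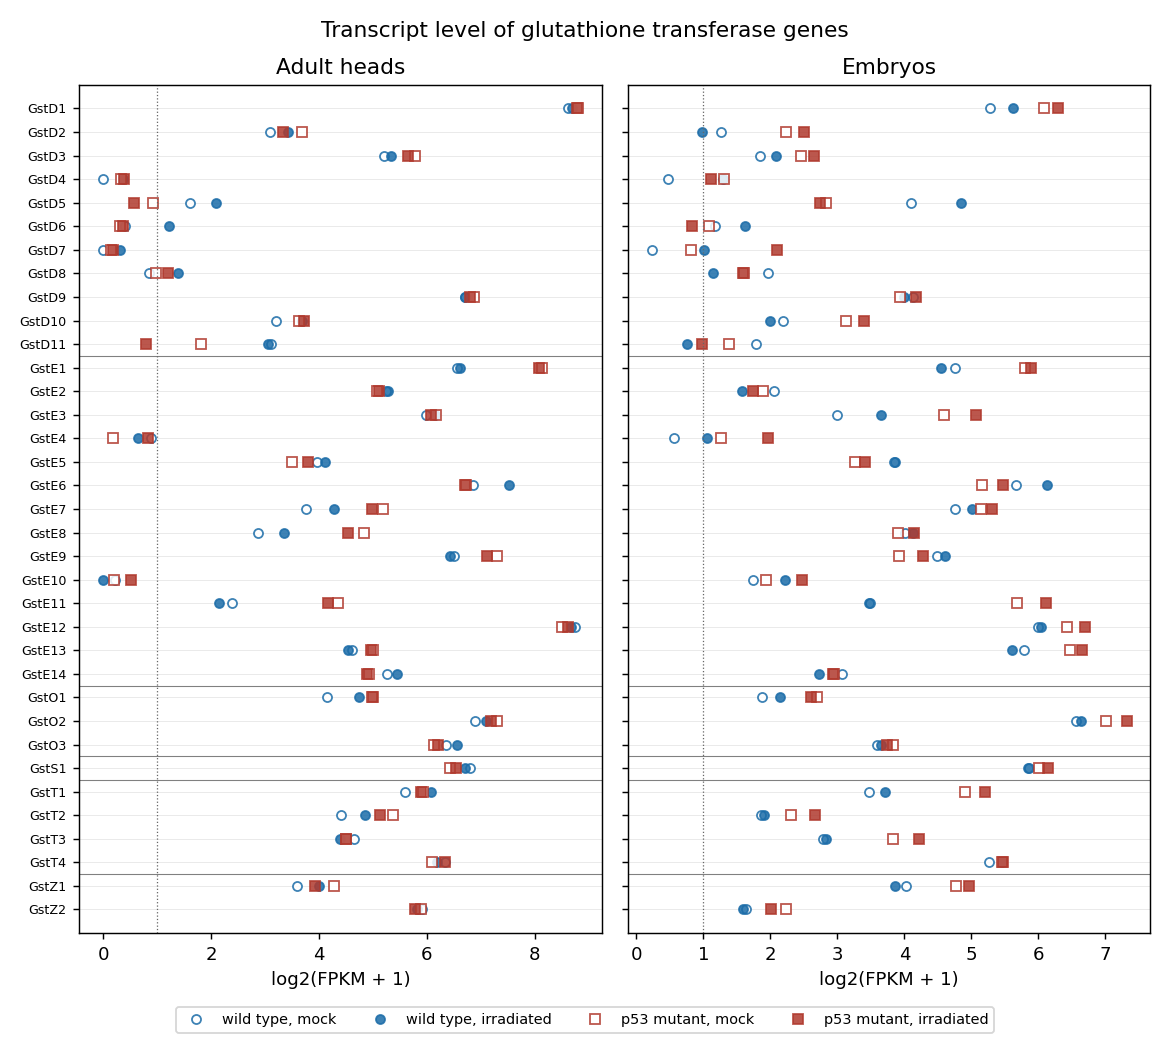
Level of each member as log2(FPKM + 1) in the 4 head and 4 embryo libraries, grouped by class, 1 point per library and no error bars because each group is 1 library. GstD1 and GstE12 are highest in heads, and GstO2 and GstE12 are highest in embryos.

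Mock-treated heads of the mutant strain had more transcript of 4 epsilon genes than those of wild type and less of 1 delta gene. GstE1, GstE7, GstE8 and GstE11 were higher, 4 of 31 members against 4.33% of all expressed genes, and GstD11 was lower, against 3.26%. In irradiated heads GstE1, GstE8 and GstE11 were higher, 3 of 31 against 3.79%, and GstD5 and GstD11 were lower, 2 of 31 against 4.31%. The difference was above 0 for 18 of 31 members in mock heads, 58.1% against 53.3% of all genes, and for 15 of 31 in irradiated heads, 48.4% against 47.7%. The median difference over the members was 0.18 in mock heads, where that of all genes was 0.03, and -0.04 in irradiated heads, where that of all genes was -0.02.

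GstE1, the first forward gene of the epsilon array, stood at 92.8, 97.2, 280.6 and 268.4 FPKM in heads. Both mutant libraries were above both wild-type libraries, by 1.59 in mock heads (ratio 3.02, interval 2.78 to 3.29) and by 1.46 in irradiated heads (ratio 2.76, interval 2.56 to 2.99). GstE11, which lies outside the array, stood at 4.24, 3.42, 19.5 and 17.0 FPKM. The differences were 1.97 in mock heads (ratio 4.61, interval 3.12 to 6.8) and 2.02 in irradiated heads (ratio 4.96, interval 3.37 to 7.47). GstE8 stood at 6.26, 9.25, 27.3 and 22.3 FPKM, with differences of 1.96 in mock and 1.18 in irradiated heads. Its neighbour GstE7 stood at 12.5, 18.5, 35.6 and 30.5 FPKM, a difference of 1.43 in mock heads (ratio 2.84, interval 2.23 to 3.69) and of 0.70, within 2-fold, in irradiated heads. For each of these 4 genes both mutant libraries lay above both wild-type libraries, as they did for 32.5% of all genes. The 4 were named for passing 2-fold between these same libraries, so this order adds no support.

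Other genes of the arrays had smaller or opposite differences. GstE2 stood at 36.8, 37.6, 32.9 and 33.6 FPKM and GstE3 at 62.6, 70.2, 71.0 and 66.7 FPKM, all within 2-fold. GstE9, at the end of the array, stood at 90.1, 85.2, 155.6 and 138.2 FPKM, with differences of 0.78 and 0.69 that did not reach 2-fold. GstD11, the last gene of the delta array, went the other way, at 7.59, 7.30, 2.49 and 0.725 FPKM. Its difference was -1.30 in mock heads (ratio 0.328, interval 0.2 to 0.524) and -2.27 in irradiated heads (ratio 0.0993, interval 0.0392 to 0.217). GstD5 stood at 2.05, 3.24, 0.900 and 0.481 FPKM, with -1.52 in irradiated heads on an estimated 4 mutant against 31 wild-type fragments.

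By order of the 4 libraries alone, both mutant heads lay above both wild-type heads for 12 of 31 members, 38.7% against 32.5% of all genes, and below for 10 of 31, 32.3% against 31.4%. The second group includes GstD5 and GstD6, which passed the filter only in wild-type heads, where they were high. The first group held GstD1, GstD3, GstD9, GstE1, GstE7, GstE8, GstE9, GstE11, GstE13, GstO1, GstO2 and GstT2. Humoral immune effectors moved with the strain in the same heads. Of 17 effectors found, 13 were higher in mock mutant heads, against 4.33% of all genes, and 12 in irradiated ones, against 3.79%. The effector sums were 3227, 2755, 12150.3 and 11895 FPKM. Hemocyte markers summed to 96.2, 96.8, 129.6 and 124.1 FPKM and fat body markers to 8044, 6793, 6012 and 6324 FPKM. Of 7 hemocyte markers 2, NimC1 and Sr-CI, were higher in mock and irradiated mutant heads, against the same shares. The list medians were -0.08 and -0.15, so the rise in the sum was not shared by the list. Of 6 expressed fat body markers Lsp2 was lower in mock mutant heads, against 3.26% of all genes, and the list medians were -0.22 and -0.16. The part of these differences in the levels of the members was not tested.

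**Figure D3:**
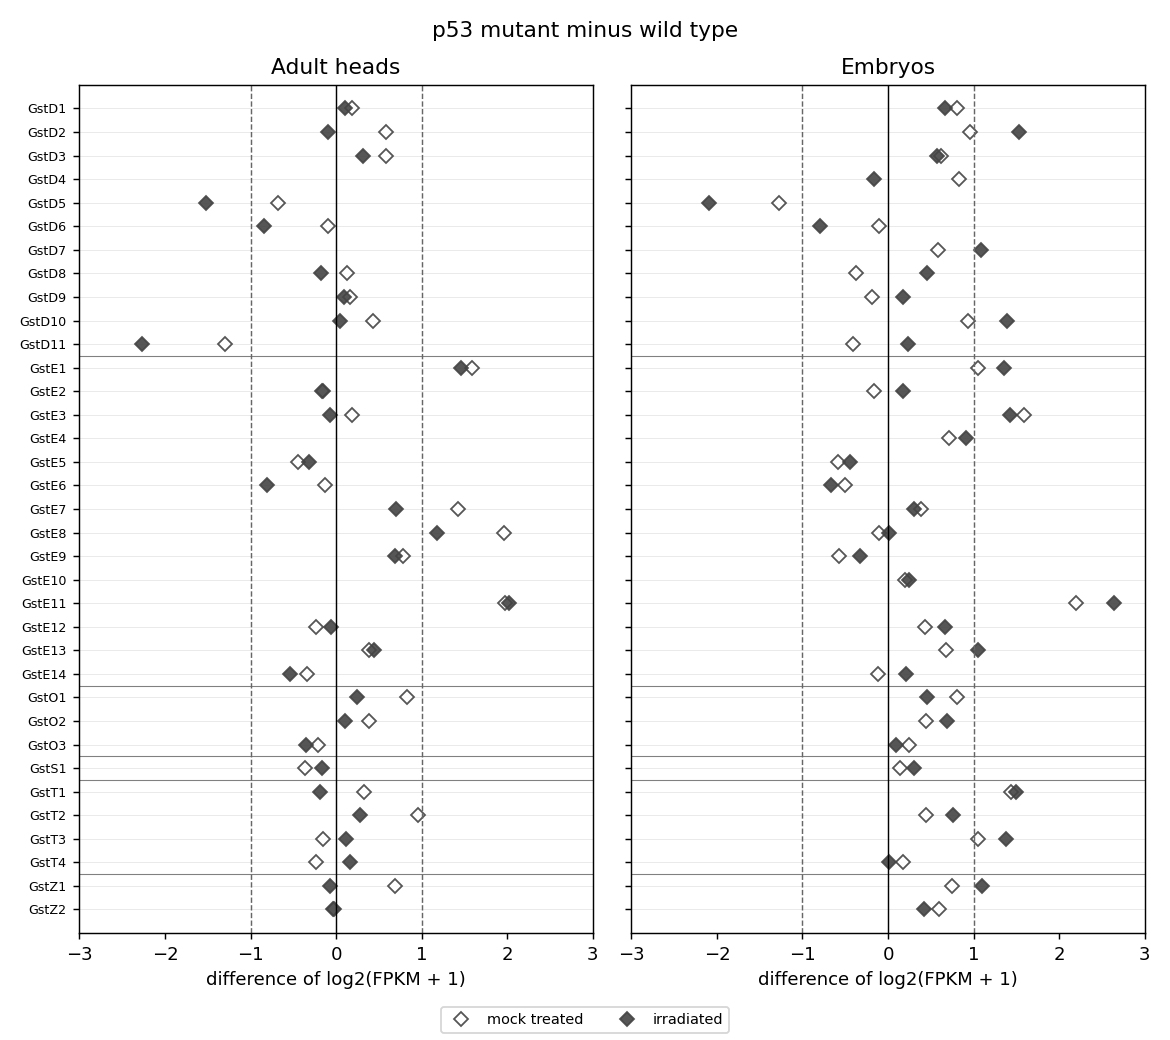
Mutant minus wild-type difference in log2(FPKM + 1) of each member, mock and irradiated, in heads and in embryos, with 2-fold marked. GstE1 and GstE11 lie above the 2-fold mark in all 4 comparisons.

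In embryos most members called between the strains were higher in the mutant. In mock embryos GstE1, GstE3, GstE11, GstT1 and GstT3 were higher, 5 of 35 members against 4.94% of all expressed genes, and GstD5 was lower, 1 of 35 against 2.44%. In irradiated embryos 10 of 35 were higher, against 6.43%, namely these 5 and GstD2, GstD7, GstD10, GstE13 and GstZ1, and GstD5 was lower, against 3.05%. The median difference of the members was 0.44 in mock and 0.45 in irradiated embryos, where the medians of all genes were -0.01 and 0.01. Differences were above 0 for 24 of 35 members in mock embryos, 68.6% against 48.9% of all genes, and for 29 of 35 in irradiated embryos, 82.9% against 51.0%. Among the 24, GstD4, GstD7 and GstE4 stood below 1 FPKM in mock wild-type embryos and passed the filter only through other libraries, where they were higher. Both mutant libraries lay above both wild-type libraries for 20 of 35 members, 57.1% against 33.5% of all genes, and below for 5 of 35, 14.3% against 32.4%. Those 5 were GstD5, GstD6, GstE5, GstE6 and GstE9.

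GstE11 had the largest of the called embryo differences, at 10.2, 10.1, 50.2 and 68.1 FPKM. Its difference was 2.20 in mock (ratio 4.94, interval 4.12 to 5.97) and 2.64 in irradiated embryos (ratio 6.77, interval 5.69 to 8.09). GstE3 stood at 6.99, 11.5, 23.1 and 32.5 FPKM, with differences of 1.59 and 1.42. GstE1 stood at 25.9, 22.3, 54.8 and 58.5 FPKM, with differences of 1.05 and 1.35. In these 3 epsilon genes both mutant libraries exceeded both wild-type libraries, as for 33.5% of all genes. They were named for passing 2-fold between these same libraries, so this order adds no support.

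Of the 4 theta genes, GstT1 and GstT3 passed 2-fold. GstT1 stood at 10.1, 12.1, 29.1 and 36.0 FPKM, with differences of 1.44 (ratio 2.88, interval 2.41 to 3.44) and 1.49 (ratio 2.97, interval 2.54 to 3.47). GstT3, on the X chromosome, stood at 5.92, 6.14, 13.3 and 17.6 FPKM, with differences of 1.05 and 1.38. GstT4, also on X, stood at 37.5, 43.0, 42.7 and 43.3 FPKM and was close to level. Of the zeta genes, whose mammalian relative is an enzyme of tyrosine breakdown, GstZ1 stood at 15.2, 13.5, 26.3 and 30.1 FPKM and differed by 1.10 in irradiated embryos (ratio 2.23, interval 1.9 to 2.63). GstE13 stood at 54.3, 47.6, 87.4 and 99.4 FPKM and differed by 1.05 in irradiated embryos.

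Delta genes were low in embryos apart from GstD1, GstD5 and GstD9. GstD5 ran against most of the family, at 16.0, 27.6, 6.09 and 5.71 FPKM. Its difference was -1.27 in mock (ratio 0.38, interval 0.296 to 0.489) and -2.09 in irradiated embryos (ratio 0.207, interval 0.163 to 0.261). GstD10 stood at 3.57, 2.99, 7.78 and 9.48 FPKM and differed by 1.39 in irradiated embryos. GstD2 stood at 1.40, 0.97, 3.68 and 4.67 FPKM and differed by 1.53 in irradiated embryos, on 62 mutant against 12 wild-type fragments. Both mutant libraries were above both wild-type libraries for GstD2 and GstD10, while GstD6 had them below, and GstD8 and GstD11 were highest in the wild-type mock library. GstD7 stood at 0.17, 1.02, 0.75 and 3.29 FPKM and differed by 1.09 in irradiated embryos (ratio 3.23, interval 1.68 to 6.39). GstD1 stood at 37.8, 48.4, 67.0 and 77.35 FPKM, within 2-fold in both comparisons, with the mutant libraries above the wild-type ones.

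Maternal transcripts, which embryos of this age are clearing, moved with the strain as well. Of 10 markers, 7 were higher in mock mutant embryos, against 4.94% of all genes, and 4 in irradiated ones, against 6.43%. The marker sums were 134.9, 173.8, 242.6 and 291.7 FPKM. Zygotic patterning genes summed to 402.6, 384.7, 353.9 and 319.3 FPKM, and gut markers to 14.1, 77.3, 69.2 and 150.2 FPKM. The part of these lists in the embryo differences of the members was not tested.

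Across tissues, GstE1 and GstE11 were higher in the mutant in both heads and embryos, mock and irradiated. They were 2 of the 31 members expressed in both tissues, or 6.45%, where 0.812% of the 9242 genes expressed in both were higher in both in mock and 0.909% in irradiated samples. In mock samples they were 50.0% of the 4 members higher in heads, against 25.8% of all genes higher in heads, and 40.0% of the 5 higher in embryos, against 22.0%. In irradiated samples they were 66.7% of the 3 higher in heads, against 33.9%, and 22.2% of the 9 higher in embryos and also expressed in heads, against 18.6%. GstD5, 1 of 31, was lower in irradiated mutant samples of both tissues, against 0.53% of all genes, and no member was lower in mock mutant samples of both, against 0.498%. By order alone, both mutant libraries lay above both wild-type libraries in both tissues for 9 of 31 members, 29.0% against 15.1% of all genes, and below in both for GstD5, GstD6, GstE5 and GstE6, 12.9% against 14.5%. In heads the place of GstD6 rests on an estimated 2 fragments in each library but the irradiated wild-type one, the only one past the filter. GstD5 passed the filter there only in the wild-type libraries. GstE9 lay above in heads and below in embryos, a pattern of 7.0% of all genes, and stood at 21.4, 23.3, 14.1 and 18.4 FPKM in embryos. GstE12, GstO3 and GstS1 lay below in heads and above in embryos, a pattern of 7.28% of all genes. GstS1, abundant in flight muscle and known to conjugate the lipid aldehyde 4-hydroxynonenal, stood at 109.9, 103.2, 85.2 and 91.7 FPKM in heads and at 57.2, 56.3, 63.1 and 69.7 FPKM in embryos, within 2-fold in each tissue.

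**Figure D4:**
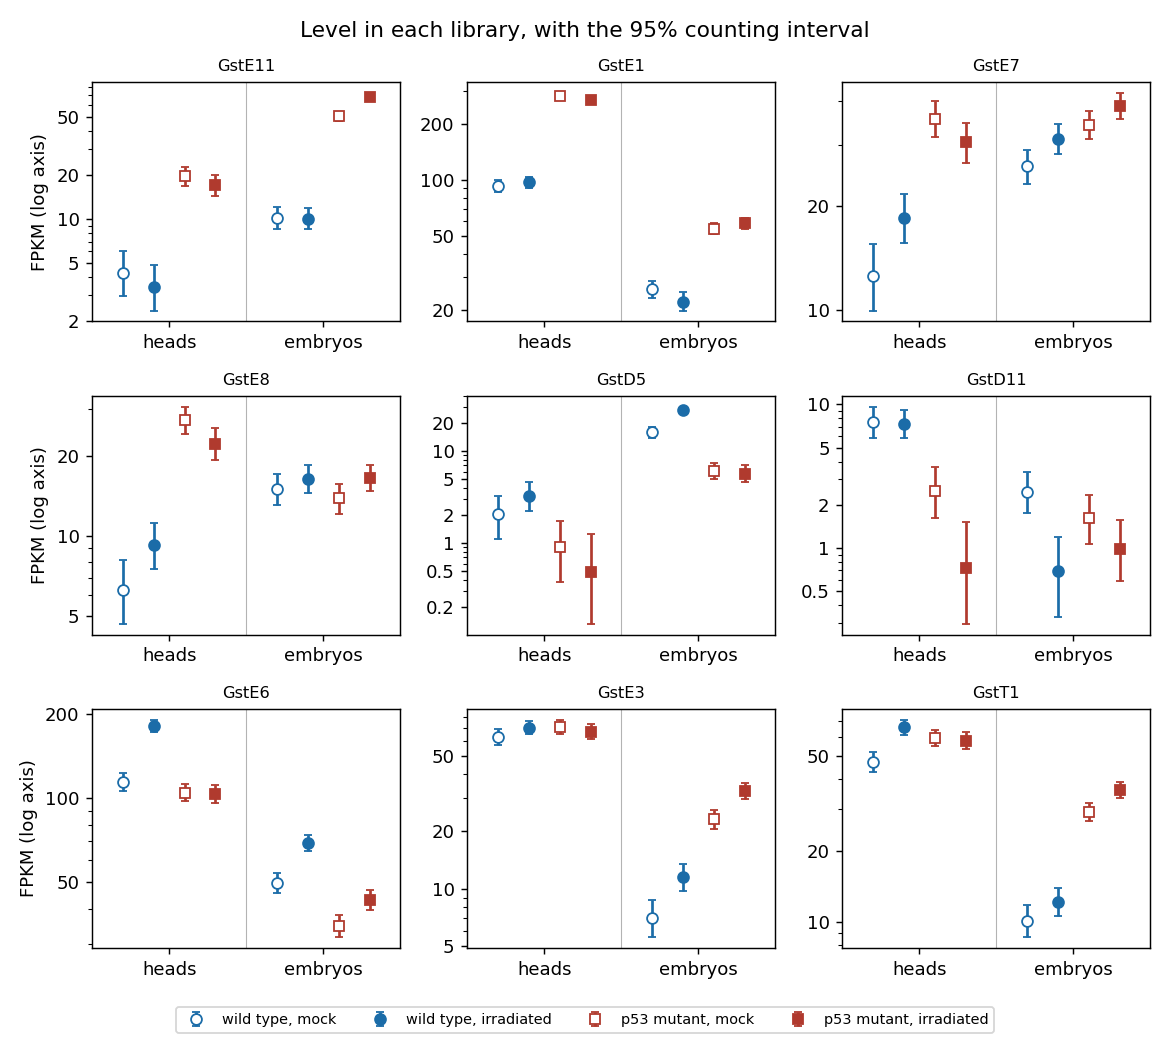
FPKM of 9 members in the 4 libraries of each tissue, 1 point per library on a log axis, with the 95% counting interval as the error bar. GstE1 and GstE11 are higher in both mutant libraries of both tissues, GstD5 is lower in both, and GstE8 is higher in mutant heads but at 13.9 to 16.6 FPKM in all 4 embryo libraries.

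No member was called after radiation in wild-type heads at a pseudocount of 1 FPKM. With 0.1 FPKM GstD6 was higher, at 0.328 and 1.33 FPKM on 2 mock and 11 irradiated fragments. At 1 FPKM none of 31 was higher, against 1.52% of all expressed genes, and none was lower, against 0.487%. Differences were above 0 for 22 of 31 members, 71.0% against 52.0% of all genes, with a median of 0.17 where that of all genes was 0.01. In mutant heads 10 of 31 differences were above 0, 32.3% against 41.8%, and the median was -0.04, as for all genes. There none was higher, against 0.637%, and GstD11 was lower, against 0.731%, at -1.02 on 7 against 26 fragments.

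GstE6, a member of the epsilon array, stood at 114.6, 182.0, 104.7 and 103.4 FPKM in heads. The irradiated wild-type library was the highest and the other 3 were close together. Its difference was 0.66 in wild-type heads (ratio 1.59, interval 1.45 to 1.74) and -0.02 in mutant heads (ratio 0.987, interval 0.893 to 1.09). GstO1 stood at 16.7, 25.8, 30.5 and 30.9 FPKM, with differences of 0.60 (ratio 1.55, interval 1.26 to 1.90) and 0.02, and here the wild-type mock library was the low one. GstT1 stood at 47.2, 66.2, 59.8 and 58.0 FPKM, with differences of 0.48 and -0.04. The wild-type mock library was the lowest of the 4 for 15 of 31 members, 48.4% against 27.4% of all genes, and the irradiated wild-type library was the highest for 9 of 31, 29.0% against 23.9%. Both irradiated libraries lay above both mock libraries for GstD8 and GstD10, 6.45% against 8.46%, and below for GstT3 and GstZ2, 6.45% against 9.13%. GstD8 passed the filter only in the irradiated libraries, on an estimated 15 and 10 fragments against 6 and 8 in mock. GstD6 passed it only in the irradiated wild-type library. Both thus entered the 9 above, and the 22 differences above 0, through libraries where they were high. GstD8 entered the 15 above in the same way. Gut markers differed between the same pair of wild-type head libraries. Of these markers 9 of 11 were higher after radiation, against 1.52% of all genes, with a median difference of 3.19. The part of this in the values of the members was not tested.

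In wild-type embryos no member was higher after radiation, against 1.32% of all genes, and GstD11 was lower, 1 of 35 against 0.892%, at -1.03 on 11 against 38 fragments. GstD11 stood at 2.46, 0.69, 1.61 and 0.98 FPKM, below 1 FPKM in both irradiated embryo libraries. In mutant embryos GstD7 was higher, 1 of 35 against 1.02%, at 1.29 on 45 against 10 fragments, and none was lower, against 0.948%. Differences were above 0 for 22 of 35 members in wild-type embryos, 62.9% against 53.4%, and for 25 of 35 in mutant embryos, 71.4% against 58.1%. Both irradiated libraries lay above both mock libraries for GstD7, GstE8, GstE10 and GstT4, 11.4% against 11.5%, and below for GstD8, GstD11, GstE2 and GstE14, 11.4% against 9.49%. GstD7 passed the filter only in the irradiated libraries and GstD11 only in the mock ones, where each was high. The wild-type mock library was the lowest for 16 of 35 members, 45.7% against 27.1%, and the irradiated wild-type library the highest for 5 of 35, 14.3% against 27.6%. GstD4, GstD7 and GstE4, among the 16, stood at 0.39, 0.17 and 0.47 FPKM in wild-type mock embryos. They passed the filter only through other libraries, where they were higher, and are also among the 22 differences above 0. Gut markers were higher after radiation in the same embryos, 8 of 10 expressed in wild type with a median difference of 1.68 and 6 of 10 in the mutant with a median of 1.21, and their part in the values of the members was not tested. Within a strain, no member passed 2-fold after radiation in both tissues, which 0.238% of all genes did upward and 0.0108% downward in wild type, and 0.0216% upward and 0.0108% downward in the mutant. GstD5 differed by 0.75 in wild-type (ratio 1.72, interval 1.46 to 2.05) and by -0.08 in mutant embryos. GstE6, at 49.6, 69.2, 34.8 and 43.2 FPKM, differed by 0.47 in wild-type (ratio 1.40, interval 1.26 to 1.56) and by 0.30 in mutant embryos (ratio 1.24, interval 1.10 to 1.41).

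**Figure D5:**
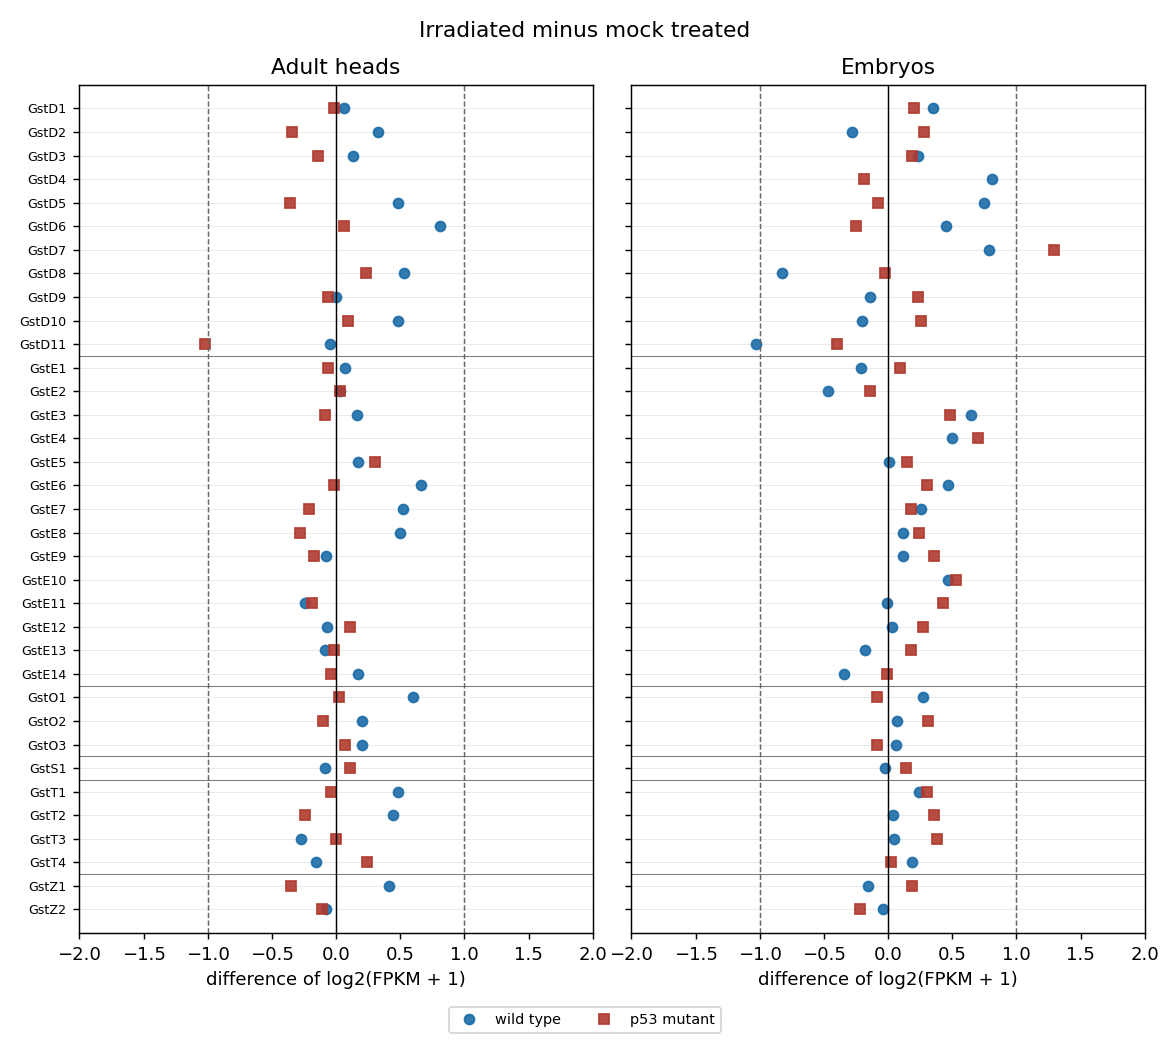
Irradiated minus mock difference in log2(FPKM + 1) of each member in wild-type and mutant heads and embryos, with 2-fold marked. In wild-type heads 22 of 31 members lie above 0 and none reaches 2-fold on this scale, while GstD6 does with a pseudocount of 0.1 FPKM.

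The p53-dependent response, the wild-type minus the mutant radiation difference, was counted at 2-fold where the wild-type difference itself passed 2-fold in the same direction. No member met this in heads, against 1.29% of all genes higher and 0.319% lower, nor in embryos, against 0.873% higher and 0.46% lower. In both tissues at once it was met by 0.119% of all genes higher and 0.0108% lower. In heads 23 of 31 values were above 0, 74.2% against 57.4%, and in embryos 12 of 35, 34.3% against 48.1%. Among the 23, GstD5 passed the filter only in wild-type heads, GstD6 only in irradiated wild-type heads and GstD8 only in irradiated heads. These members thus entered the 23 through libraries where they were high, so they add no support to that share. The highest value in heads was that of GstD11, 0.97, with a wild-type difference within 2-fold. In embryos GstD4 reached 1.00 with a wild-type difference of 0.81.

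Chromatin precipitated with a p53 antibody was compared by the authors between wild type and mutant, without a radiation label, giving 392 peaks in heads and 135 in embryos. The heads were from adults aged 1 to 2 weeks and the embryos were 4.5 to 5.5 h old. Each peak list rests on 1 wild-type and 1 mutant library, so the spread between replicates is unknown. No summit lay within 2 kb of the start of a member. Within 5 kb each tissue had a single peak, near GstE8 and GstE9. In heads it spanned 2R:18411773-18412307 with an authors' fold of 8.63, rank 25 of 392, and in embryos 2R:18411854-18412270 with a fold of 5.37, rank 4 of 135. The summits lay 2980 and 2985 bp from the start of GstE9 and 2193 and 2198 bp past its end. They lay 1 and 6 bp from the start of Dp1 and inside imd, an adaptor gene of the immune deficiency pathway, so the peak is nearer to those genes than to any member.

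Other lists of glutathione, redox and detoxification genes were counted at the same 2-fold. Of the list of glutathione supply and other glutathione enzymes, 8 were expressed in heads and none passed 2-fold between strains. Of all head genes, 4.33% were higher and 3.26% lower in mock mutant samples, and 3.79% and 4.31% in irradiated ones. On lists this short, a count of 0 is not distinct from those shares. Gclc and Gclm, the subunits of the enzyme that limits glutathione synthesis, stood at 40.7, 43.2, 49.9 and 56.3 FPKM and at 116.4, 132.4, 135.0 and 156.0 FPKM in heads. Of 7 expressed in embryos, PHGPx, a peroxidase of lipid peroxides, was higher in irradiated mutant embryos, at 15.9, 16.8, 28.2 and 36.0 FPKM. That was 1 of 7, against 6.43% of all genes. None of the 5 CncC and Keap1 regulators passed 2-fold in any comparison, and cnc itself stood at 57.0, 52.9, 74.1 and 74.8 FPKM in heads.

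Of 14 expressed genes of superoxide and peroxide defence, none passed 2-fold in heads. In mutant embryos the peroxiredoxins Jafrac1 and Prx3 were higher in mock, by 1.07 and 1.15, and Prx3 and the superoxide dismutase gene Sod in irradiated samples, by 1.34 and 1.09. Each time that was 2 of 14, against 4.94% of all genes in mock and 6.43% in irradiated embryos. The transferases had 5 of 35 and 10 of 35 there. The median of the list between strains was 0.48 in mock and 0.43 in irradiated embryos, beside 0.44 and 0.45 for the transferases. Among 7 other detoxification enzymes expressed in heads, the cytochrome P450 gene Cyp6a2 was lower in mock mutant heads, with a difference of -1.31, at 138.1, 119.2, 55.1 and 59.9 FPKM. Cyp12d1-p was lower in mock and irradiated mutant heads, with differences of -2.28 and -2.20. Lower genes were thus 2 of 7 in mock heads, against 3.26% of all genes, and 1 of 7 in irradiated heads, against 4.31%. In mock mutant embryos Jheh1, a juvenile hormone epoxide hydrolase gene, was higher by 1.00, 1 of 4 expressed against 4.94%.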

How the data were processed

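Transcript levels are the authors' Cuffdiff FPKM, deposited as 1 table for heads and 1 for embryos, per the file headers. The submitters' processing notes name cutadapt, TopHat2, Picard and SAMtools for RNA, Bowtie2 and MACS2 for chromatin, and the dm6 build. Versions, annotation and any pooling of replicates: not given in the sources used here. For the members, the authors' deposited log2 fold change columns, made after adding 1 FPKM, differed from recomputed values by at most 0.00923. The deposited peak lists give the authors' fold (ratio) of wild type over mutant, −log10 p-values and q-values, and a display score that was not used.

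Differences were taken as log2(FPKM + 1) within a table, with a filter of 1 FPKM in at least 1 of 4 groups, and a threshold of 2-fold. Since a group is 1 library, libraries were not tested against each other. FPKM is relative to the library, so a difference in total RNA is not seen. Depth came from single-transcript genes of 800 to 3000 bp, as the spacing of FPKM multiplied by a length reduced by 150 bp. The steps were less distinct in heads (score 0.151 to 0.226) than in embryos (0.402 to 0.444), and other reductions gave 10.2 to 15.4 M and 18.3 to 25.4 M fragments. The depth estimate and the counts were tested on simulated data. Scripts used Python 3.11.15 with pandas 2.3.3, numpy 2.4.6 and scipy 1.17.1. Gene positions came from the deposited tables and a BDGP6 annotation, which is dm6. The members and the 15 lists of 131 symbols, of which 123 were found, were chosen with earlier results of these data known. Any member could be named, and those past 2-fold in a comparison or among the 6 highest of a tissue get values per library, with p53 and up to 5 genes per list past 2-fold. GstD6, GstD8, GstE2, GstO1, GstT4, Gclc, Gclm, cnc, Dp1 and imd are outside this rule and were chosen after their values were seen. Alternatives were a pseudocount of 0.1 FPKM, no filter or a filter of 5 FPKM, median rescaling, and peak windows of 2 and 10 kb.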

Additional observations from a re-analysis of the deposited data

How the results depend on the processing

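No count of members moved without the filter or under median rescaling, and no direction reversed. With a pseudocount of 0.1 FPKM, which gives low genes more weight, members higher after radiation went to 1 in wild-type heads (GstD6), 3 in wild-type embryos and 2 in mutant embryos, and lower to 2 in wild-type embryos. Members higher in mock mutant embryos went from 5 to 11, higher ones in irradiated embryos from 10 to 11, and lower ones to 2 in mock heads, 3 in irradiated heads (GstD6 added) and 2 in irradiated embryos. The p53-dependent count went to 1 higher in heads (GstD6) and to 1 higher and 2 lower in embryos. With a filter of 5 FPKM, lower members in irradiated mutant heads went to 1, as GstD5 was no longer tested, and those after radiation to 0 lower in wild-type and 0 higher in mutant embryos, as GstD11 and GstD7 were no longer tested. The 10 members higher in irradiated mutant embryos lost GstD2 and GstD7, which reached at most 4.67 and 3.29 FPKM in embryos. Members near a peak summit numbered 2 per tissue within 5 kb, 0 in heads and 0 in embryos within 2 kb, and 8 in heads and 6 in embryos within 10 kb. No paired analysis was possible because each group is 1 library, and for the same reason no replicate could be left out. Calls on few fragments, those of GstD2, GstD5 in heads, GstD7 and GstD11, are limited by depth.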
